A study of Mus musculus with 12 samples.

Results

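The proteasome, the main protein-degrading machine of the cell, was followed here through the genes of its subunits, activators and assembly chaperones. Members were all protein-coding mouse genes whose symbol starts with Psma, Psmb, Psmc, Psmd, Psme, Psmf or Psmg followed by a digit. The rule found 50 genes among the 39179 in the table. Of these, 48 reached a normalized log2 value of 4 in at least 6 libraries and were tested, and 1 of the 48, Psmc3ip, is named for binding Psmc3 and is not a proteasome subunit. Psma8 and Psmb11, the testis and thymus forms of core subunits, were not tested. Psma8 had a wild-type median of 2.73, and Psmb11 medians of 1.96 (wild type) and 2.05 (null), near the floor of the table.

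The libraries are poly-A RNA from whole prostate tissue of mice aged 4 months, all given paraquat, which produces superoxide by redox cycling. The 6 wild-type libraries and the 6 libraries null for the gene under study share a mixed background, labelled as a hybrid of 129/SvImJ and C57Bl/6J. Every library comes from a treated animal, so the comparison is of genotypes under paraquat. Differences are null minus wild type on the deposited log2 scale, on which a difference of 1 is a doubling of a well-expressed gene.

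Within each genotype the libraries formed 2 sets of 3 close profiles, libraries 1 to 3 (first set) and 4 to 6 (second set). The median absolute difference was 0.0776 to 0.141 between libraries of a set, 0.274 to 0.352 between the sets of a genotype and 0.323 to 0.71 between genotypes. Separate animals are not marked in the labels, so the p-values measure only the spread between these samples, which may be technical within a set. Tests were therefore run over the 12 libraries (limma, 6 against 6) and over the 4 set means (limma, 2 against 2), and paired p-values below stand in that order. A gene given by its difference alone is described by its call over the 12 libraries, and no such gene passed over set means. Differences between a pair of genes have no test. Estimated depth was 14.8 to 21.7 M reads per library. Summed secretory epithelium markers (Pbsn, Msmb, Sbp, Spink1, Krt8 and Krt18) were at 20.07 to 20.96 on the log2 scale in wild type. In the null they were at 17.31 to 17.37 in the first set and at 16.39 to 16.42 in the second. Single markers differed widely, from -7.37 for Pbsn (adjusted p 4.73e-10 and 0.00632) to -1.13 for Krt18 (6.15e-06 and 0.0957). Krt8 was not called (-0.29, adjusted p 0.0617 and 0.481). Summed seminal vesicle secretion genes (6 Svs genes) were at 5.67 to 7.70 in wild type. In the null this sum was 21.34 to 21.36 in the first set, which was also the lower null set for most proteasome genes, and 16.82 to 16.85 in the second. Single genes did not share that order, and 3 of the 6 were higher in the second null set. Means of the first and second null set were 21.03 and 11.37 for Svs2, and 14.58 and 16.43 for Svs4. The part of the seminal vesicle genes in the proteasome results was not tested. In whole tissue fewer cells of a type and less RNA per cell cannot be told apart.

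The proteasome degrades proteins tagged with ubiquitin. Its core particle is a barrel of alpha rings, which gate entry, around beta rings that carry the proteolytic sites. The regulatory particle binds ubiquitin chains, removes them and unfolds the substrate with a ring of ATPases. Under interferon the catalytic beta subunits Psmb5, Psmb6 and Psmb7 are replaced by Psmb8, Psmb9 and Psmb10, which gives the immunoproteasome and peptides suited to MHC class I. When proteasome capacity is short, the transcription factor Nfe2l1 induces subunit genes together. In secretory tissue such as prostate, proteins that fail to fold in the endoplasmic reticulum are also sent to the proteasome.

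Most proteasome genes had lower values in the null, in every class of the particle. Over the 12 libraries 35 of the 48 tested members were called lower and 1, Psmd1, higher at an adjusted p of 0.05, where 31.8% of all tested genes were lower and 34.1% higher. The median member differed by -0.52, against 0.05 for all tested genes, and 44 of 48 differences were negative. All 6 null libraries lay below all 6 wild-type libraries for 27 members (56.3%, against 22.7% of all genes), and above them for 1 (21.5% of all genes). Over the 4 set means no member was called (0 lower and 0 higher, against 1.93% and 2.15% of all genes). At an unadjusted p of 0.05 that fit had 17 members lower (35.4%, against 15.3% of all genes) and 0 higher. A fit over the 12 libraries with the set as a random block called 26 lower and 0 higher (17.1% and 14.1% of all genes). The calls lost under the block were those of Psmb2, Psmb9, Psmb10, Psmd1, Psmd9, Psmd11, Psmd12, Psmg4, Psme3 and Psmf1.

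**Figure D1:**
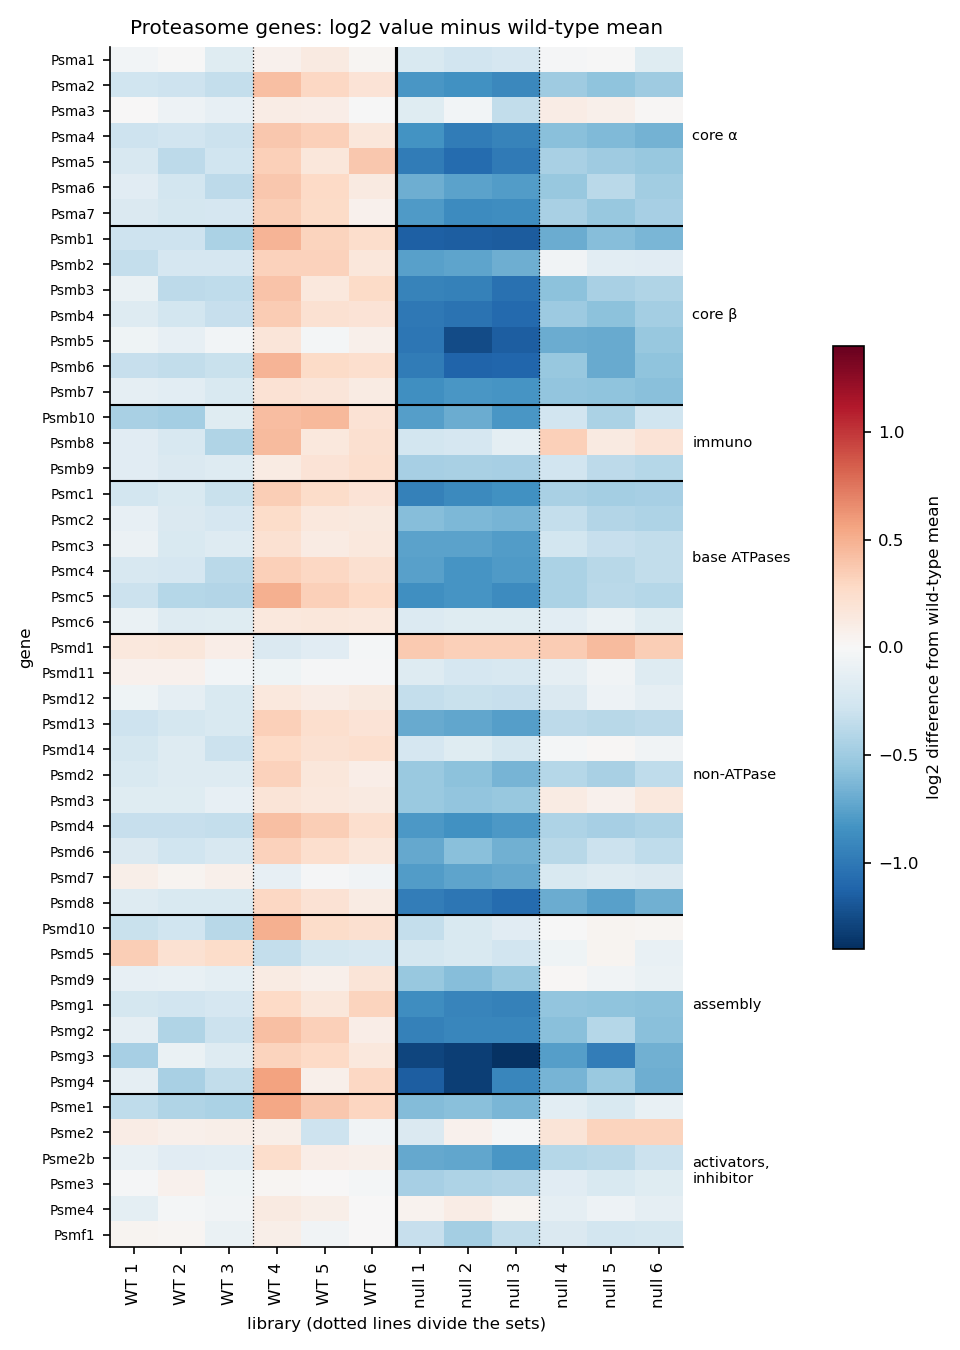
Deposited log2 values of the tested members other than Psmc3ip in each of the 12 libraries, each shown as the difference from that gene's wild-type mean (colour scale in log2 units), with genes in rows by class and libraries in columns by genotype and set. The second wild-type set is the highest and the first null set the lowest for most members.

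The sets of a genotype also differed for these genes. The second wild-type set was higher than the first for 43 of 48 members (89.6%, against 51.2% of all tested genes), with a median of 0.48 (0.012 for all genes). The second null set was higher than the first for 46 (95.8%, against 52.8%), with a median of 0.36 (0.029 for all genes). Both set differences are of the order of the difference between genotypes. The order first null set, second null set, first wild-type set, second wild-type set held for 30 members (62.5%, against 19.8% of all genes). For 32 members each null set lay below each wild-type set (32.4% of all genes). Without the first wild-type set the median member difference was -0.72 with 39 called lower (33.5% of all genes), and without the second it was -0.31 with 30 called lower (26.6%). Without the first null set it was -0.36 with 26 called lower (27.2% of all genes), and without the second -0.74 with 38 (33.7%).

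The alpha subunits form the outer rings of the core. Of the 7, 5 were called lower over the 12 libraries (31.8% of all genes), with a class median of -0.66. Psma4 ran from 9.97 to 10.65 (median 10.21) in wild type and from 9.29 to 9.69 (median 9.52) in the null. No null library reached the wild-type range, and the difference was -0.77 (SE 0.25 over set means; limma adjusted p 0.000329 over 12 libraries and 0.115 over set means). Psma7 ran from 11.60 to 12.20 (median 11.78) in wild type and from 10.97 to 11.39 (median 11.19) in the null. It differed by -0.66 (SE 0.25; adjusted p 0.000517 and 0.137), also without overlap. Psma2 (-0.69), Psma5 (-0.76) and Psma6 (-0.60) were called lower too, and none of them overlapped. The other two were not called. Psma1 differed by -0.15 (adjusted p 0.0609 and 0.593) and overlapped. Psma3 ran from 8.09 to 8.31 in wild type and from 7.86 to 8.31 in the null, with a median of 8.20 in both (difference -0.06, adjusted p 0.564 and 0.874).

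The value of Psma3 is uncertain, since it shares sequence with another gene. Of its 50-base words, 15.4% also occur in Gm13835, which had means of 11.1 (wild type) and 10.6 (null). Summed with Gm13835 on the linear scale, Psma3 differed by -0.49, with overlapping genotypes. Psma5 shares 49.1% of its words with other genes, most with Gm8394, and their sum differed by -0.47 without overlap. The sums of Psma4 with Gm6542 (-0.72), Psmc1 with Gm9575 (-0.62) and Psmd2 with Gm5422 (-0.45) stayed near the members' own differences.

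The constitutive beta subunits were the only class with every member called lower over the 12 libraries, 7 of 7 (31.8% of all genes). Their median was -0.78, and 6 were without overlap (22.7% of all genes). Psmb1, a structural subunit on chromosome 17, ran from 11.72 to 12.65 (median 12.15) in wild type and from 11.001 to 11.58 (median 11.26) in the null. The null mean was 53.7% of the wild-type mean on the linear scale (difference -0.90, SE 0.31; adjusted p 0.000665 and 0.121). Psmb4, which is not catalytic, ran from 12.01 to 12.69 (median 12.34) and from 11.24 to 11.86 (median 11.55). Its difference was -0.78 (SE 0.28; adjusted p 0.000607 and 0.132). Psmb3 differed by -0.73 without overlap. Psmb2 differed by -0.43 (adjusted p 0.0368 and 0.337), was the overlapping one and was called lower in 13 of 29 settings of the processing.

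The catalytic subunits are Psmb5 (chymotrypsin-like), Psmb6 (caspase-like) and Psmb7 (trypsin-like). Psmb5 (GRCm38 chromosome 14, 54614119 to 54618022) ran from 9.90 to 10.19 (median 9.99) in wild type and from 8.77 to 9.49 (median 9.16) in the null. The null range began and ended below every wild-type library, and the difference was -0.89 (SE 0.23; adjusted p 2.86e-05 over 12 libraries and 0.0808 over set means). That p over set means was the lowest of any member. Psmb6 (chromosome 11, 70525367 to 70527858) ran from 11.29 to 12.11 (median 11.60) and from 10.52 to 11.12 (median 10.80), a difference of -0.84 (SE 0.29; adjusted p 0.000794 and 0.124). Psmb7 (chromosome 2, 38588036 to 38644087) ran from 10.95 to 11.36 (median 11.15) and from 10.30 to 10.61 (median 10.46), a difference of -0.70 (SE 0.21; adjusted p 3.33e-05 and 0.101). Psmb6 and Psmb7 also had no overlap.

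The promoters of Psmb5 and Psmb6 are shown because both genes had some of the most negative differences and both hold a match to the core of the antioxidant response element, the site through which Nfe2l1 and Nfe2l2 act. RefSeq sequence of GRCm38.p6 was searched in the 250 bases before each start site on both strands, and capitals mark the match to TGACNNNGC. The Psmb5 stretch is chr14:54618023-54618245 on the minus strand and ends before annotated exon, and the Psmb6 stretch is chr11:70525107-70525356 on the plus strand.
Psmb5: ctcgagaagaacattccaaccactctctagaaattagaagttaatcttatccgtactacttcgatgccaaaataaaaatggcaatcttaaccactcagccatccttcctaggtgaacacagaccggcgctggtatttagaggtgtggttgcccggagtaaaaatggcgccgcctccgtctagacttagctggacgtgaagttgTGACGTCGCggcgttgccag
Psmb6: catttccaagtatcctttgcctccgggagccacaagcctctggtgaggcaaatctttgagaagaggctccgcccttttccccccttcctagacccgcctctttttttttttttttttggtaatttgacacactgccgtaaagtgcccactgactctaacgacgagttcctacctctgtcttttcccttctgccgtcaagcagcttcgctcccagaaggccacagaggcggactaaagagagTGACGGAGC
Here and in the searches below, shares of members are counted by gene and shares of all promoters by window. Member genes had 45 windows, and each match was found in as many member windows as member genes. Promoters were found for 42 member genes. TGACNNNGC was present in 5 of them (11.9%), against 10.2% of 32851 promoters of the same length, and the other holders were Psmc6, Psmd9 and Psmd12. These other holders had smaller differences, -0.16 for Psmc6 (not called), -0.30 for Psmd9 and -0.23 for Psmd12. A match is a stretch of letters and was not tested for binding.

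Of the 3 immunoproteasome subunits, 2 were called lower over the 12 libraries (31.8% of all genes), with a median of -0.40. With the set as a random block 0 of 3 were called lower (adjusted p 0.116 for Psmb10 and 0.0818 for Psmb9), against 17.1% of all genes. Psmb10, the trypsin-like form, ran from 9.17 to 10.10 (median 9.66) in wild type and from 8.83 to 9.37 (median 9.07) in the null. It was called lower over the 12 libraries (-0.55, SE 0.30; adjusted p 0.0164 and 0.252) although the ranges overlapped. Psmb9 (chromosome 17, 34181987 to 34187764) ran from 8.74 to 9.17 (median 8.92) and from 8.48 to 8.67 (median 8.52), without overlap (-0.40, SE 0.23; adjusted p 0.00179 and 0.261). Of its exon bases, 212 overlap those of the peptide transporter gene Tap1 on the opposite strand, and no source used here gives the strand setting of the counting. Psmb8 (chromosome 17, 34197721 to 34201454) ran from 8.32 to 9.19 (median 8.73) in wild type and from 8.48 to 9.07 (median 8.74) in the null. Its ranges overlapped and the null mean was 100% of the wild-type mean (SE of the log2 difference 0.28; adjusted p 0.994 and 0.997).

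A match to the gamma-activated site, TTCNNNGAA, a response site for interferon gamma, is shown for Psmb8 because it was the immunoproteasome gene with one. The window lies in annotated exons, so only chr17:34198087-34198116 (plus strand, GRCm38.p6, RefSeq) is given, with the match in capitals.
Psmb8 site: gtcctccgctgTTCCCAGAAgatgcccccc
The same letters were found in Psmg1 and in no other member, 2 of 42 genes (4.76%), against 7.02% of all promoters. The core of the interferon-stimulated response element, GAAA followed by any 2 bases and GAAA again, was found in Psmb3, Psmd4 and Psmd9, 3 of 42 genes (7.14%), against 2.98% of all promoters.

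Each immunoproteasome subunit takes the place of one catalytic subunit, so the log2 difference between the 2 was taken within each library, where scaling between libraries cancels. Transcript length enters the level of such a difference, so only its shift between genotypes is compared. Psmb8 minus Psmb5 was -1.28 ± 0.25 (SD, n = 6) for wild type and -0.38 ± 0.14 (SD, n = 6) for the null. The 6 wild-type libraries ran from -1.67 to -1.002 (median -1.25) and the 6 null libraries from -0.55 to -0.25 (median -0.36). The genotypes were separated by 0.45, and the Psmb8 to Psmb5 ratio was 1.86-fold higher in the null, a shift of 0.89. The shift was 0.69 without the first wild-type set, 1.095 without the second, and 0.70 with the trend over transcript length removed. Of the 50-base words of Psmb5, 54.1% occur in other genes, most of them in Gm3375, a gene with no row in the table, and the effect of this on the ratio was not tested.

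The other pairs differed less. Psmb9 minus Psmb6 was -2.70 ± 0.20 for wild type and -2.27 ± 0.21 for the null (SD, n = 6 each). The ranges, -3.05 to -2.54 and -2.54 to -2.03, were separated by 0.0024, and the shift of 0.43 came to 0.091 with the length trend removed. Psmb10 minus Psmb7 was -1.52 ± 0.26 and -1.36 ± 0.11 (SD, n = 6 each), with overlapping ranges of -1.84 to -1.23 and -1.51 to -1.22. Its shift of 0.15 was -0.0451 without the first wild-type set, 0.35 without the second, 0.43 with the length trend removed and 0.028 after quantile normalization.

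**Figure D2:**
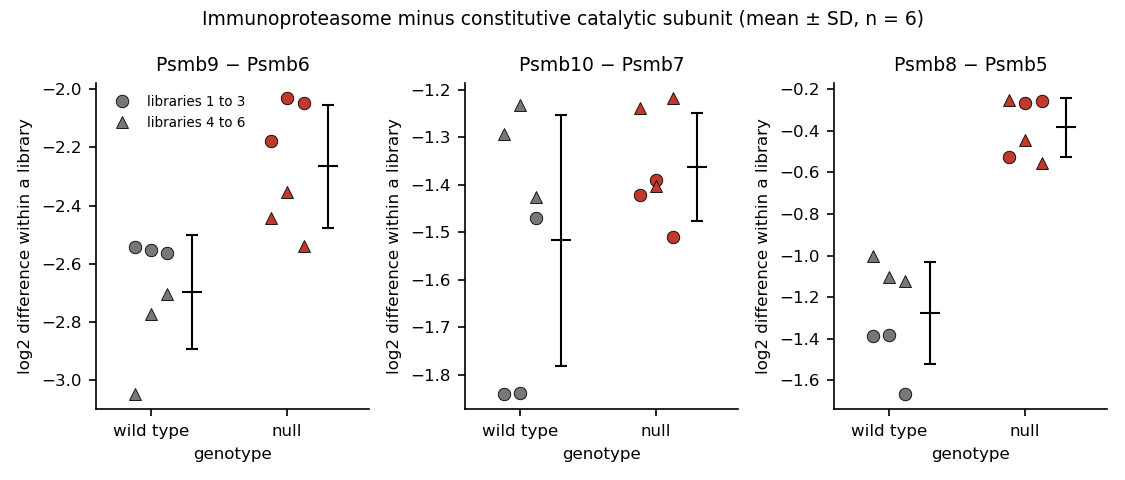
Log2 value of each immunoproteasome subunit minus that of the catalytic subunit it replaces, within each library (points) by genotype, with the mean and SD of 6 libraries. For Psmb8 minus Psmb5 every null library, at -0.55 or higher, lies above every wild-type library, at -1.002 or lower.

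Immune cells express immunoproteasome genes at high levels, and their markers moved as follows. Of 12 immune markers, 5 were called higher over the 12 libraries (34.1% of all tested genes were) and 0 lower, and none at an adjusted p of 0.05 over set means (5 higher at an unadjusted p of 0.05). Their summed log2 level was 10.47 to 10.49 in the first wild-type set, 10.84 to 10.93 in the second, 10.99 to 11.04 in the first null set and 11.48 to 11.58 in the second. All 12 markers had values of at least 4 in 6 or more libraries. The part of these cells in the values of Psmb8, Psmb9 and Psmb10 was not tested.

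In the regulatory particle, 5 of the 6 ATPases of the base were called lower over the 12 libraries (31.8% of all genes). The class median was -0.56. Psmc2 ran from 11.18 to 11.67 (median 11.43) in wild type and from 10.77 to 11.08 (median 10.90) in the null, without overlap (-0.51, SE 0.22; adjusted p 0.000536 and 0.17). Psmc1 (-0.68) and Psmc3 (-0.53) were also without overlap, and Psmc4 (-0.59) and Psmc5 (-0.63) overlapped. Psmc6 ran from 10.30 to 10.64 and from 10.30 to 10.39, and was not called (-0.16, adjusted p 0.0674 and 0.586).

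Of the 11 non-ATPase subunits, 8 were called lower over the 12 libraries and 1 higher (31.8% and 34.1% of all genes). Their median was -0.47. Psmd8, a subunit of the lid, ran from 11.78 to 12.27 (median 11.95) in wild type and from 10.91 to 11.31 (median 11.12) in the null. The ranges were well apart and the null mean was 54.9% of wild type (-0.87, SE 0.23; adjusted p 2.17e-05 and 0.0854). Psmd4, a receptor for ubiquitin chains, differed by -0.63 (SE 0.28; adjusted p 0.0031 and 0.179), and Psmd2, which docks shuttle receptors, by -0.49 (SE 0.21; adjusted p 0.000688 and 0.174). Neither overlapped. Psmd14, the subunit that cuts ubiquitin chains from the substrate, ran from 9.49 to 10.06 and from 9.54 to 9.80 and was not called (-0.12, adjusted p 0.357 and 0.736). Its partner Psmd7 was called lower (-0.47, SE 0.24; adjusted p 0.00355 and 0.228). The lid subunits Psmd13 (-0.55) and Psmd6 (-0.50) were called lower without overlap, and Psmd12 (-0.23) and Psmd11 (-0.16) were called lower with overlap. Psmd3 was not called (-0.21, adjusted p 0.212 and 0.618).

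Psmd1, the large scaffold subunit of the base (chromosome 1, 86064387 to 86139151), went the other way. It ran from 9.98 to 10.35 (median 10.22) in wild type and from 10.52 to 10.64 (median 10.54) in the null. Every null library lay above every wild-type library, and the null mean was 128% of wild type (0.36, SE 0.19; adjusted p 0.000641 and 0.236, and 0.0595 with the set as a random block). Outside the particle, Psmc3ip, which acts in meiotic recombination, ran from 4.59 to 5.43 and from 4.92 to 5.63 and was not called (0.37, adjusted p 0.101 and 0.493).

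Assembly factors bind intermediates and leave before the particle is complete. Of 7, 5 were called lower over the 12 libraries (31.8% of all genes), with a median of -0.72. The chaperones of the alpha ring, Psmg1 to Psmg4, were all among them. Psmg3 (chromosome 5, 139823592 to 139826885) ran from 7.92 to 8.70 (median 8.42) in wild type and from 7.01 to 7.72 (median 7.26) in the null. Its ranges did not overlap and its null mean was 47.8% of wild type (-1.06, SE 0.31; adjusted p 0.000105 and 0.0959), the largest difference of any tested member. Psmg4 (-0.87, SE 0.32; adjusted p 0.00117 and 0.135) and Psmg1 (-0.74, SE 0.27; adjusted p 0.000315 and 0.131) had no overlap, and Psmg2 (-0.72, SE 0.27; adjusted p 0.00119 and 0.142) overlapped.
The chaperones of the ATPase ring had smaller differences. Psmd9 was called lower over the 12 libraries (-0.30, adjusted p 0.0418 and 0.419), and Psmd5 (-0.14, adjusted p 0.323 and 0.7) and Psmd10 (-0.11, adjusted p 0.534 and 0.799) were not. The difference between the 2 kinds of chaperone was not tested.

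Of the activators and the inhibitor, 3 of 6 were called lower over the 12 libraries (31.8% of all genes), with a median of -0.31. Psme3, the nuclear activator, ran from 10.83 to 10.95 (median 10.88) in wild type and from 10.42 to 10.73 (median 10.57) in the null, without overlap (-0.31, SE 0.19; adjusted p 0.00127 and 0.296). The inhibitor Psmf1 ran from 9.64 to 9.81 (median 9.75) and from 9.25 to 9.53 (median 9.44), also without overlap (-0.31, SE 0.18; adjusted p 0.000578 and 0.286). Psme4, the large activator for histone breakdown, had medians of 11.35 and 11.34 and was not called (-0.02, adjusted p 0.78 and 0.947). The interferon-induced activator is made of Psme1 and Psme2. Psme1 differed by -0.39 with overlap (adjusted p 0.0863 and 0.419). Psme2 was listed at 6.46 to 7.07 over all libraries (0.11, adjusted p 0.43 and 0.818) and Psme2b at 10.16 to 11.23 (-0.56, SE 0.22; adjusted p 0.000489 and 0.15). Since 69.3% of the 50-base words of Psme2b occur in other genes, nearly all in Psme2, the split between them is uncertain, and their sum differed by -0.52 without overlap.

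**Figure D3:**
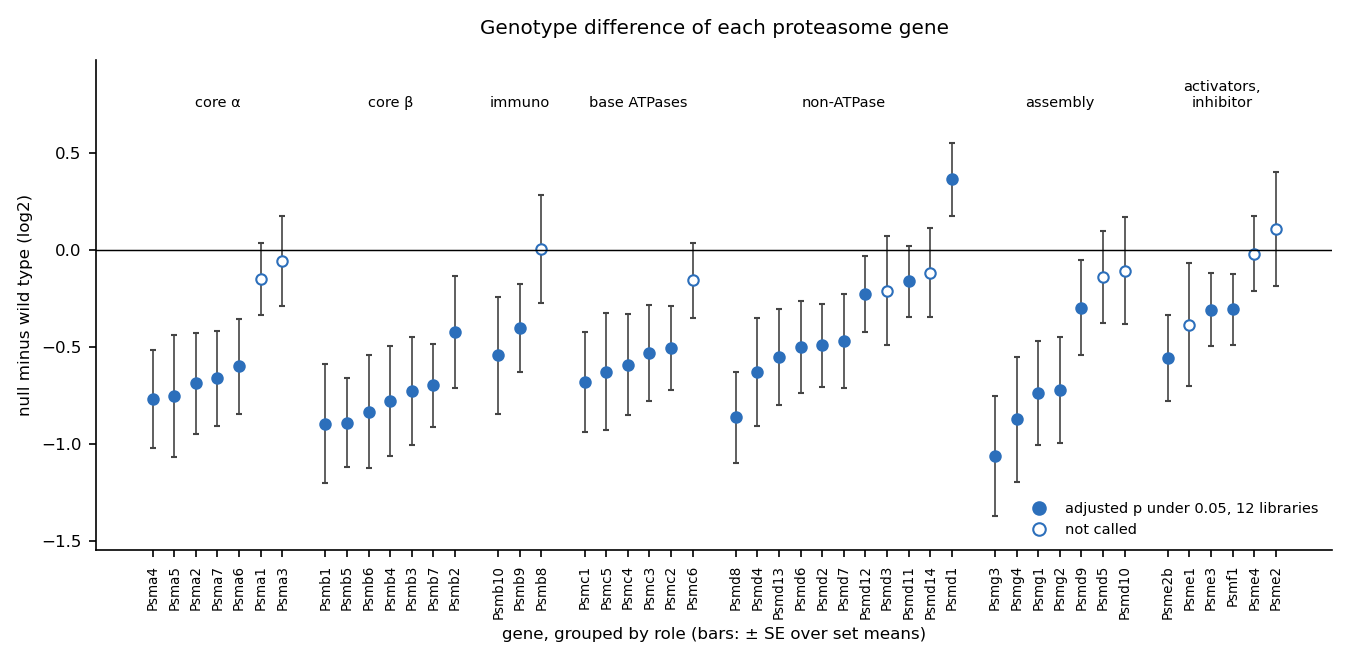
Null minus wild-type difference on the log2 scale for each tested member other than Psmc3ip, grouped by class, with bars of ± SE over the 4 set means and filled points for an adjusted p under 0.05 over the 12 libraries. Most points lie below 0, and Psmd1 (0.36) is the member called higher over the 12 libraries.

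By class, the medians ran from -0.31 for activators and the inhibitor and -0.40 for the immunoproteasome to -0.78 for the constitutive beta subunits, with ranges of members that overlap between classes. Differences between classes were not tested. In single libraries the null sets lay below the wild-type sets for the medians of 6 of the 7 classes. In the non-ATPase class the second null set (-0.21 to -0.18) overlapped the first wild-type set (-0.21 to -0.18). The beta class, taken as each library's median difference from the wild-type mean of each gene, lay at -0.32 to -0.18 in the first wild-type set and 0.20 to 0.35 in the second. It lay at -1.09 to -0.98 in the first null set and -0.57 to -0.53 in the second.

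**Figure D4:**
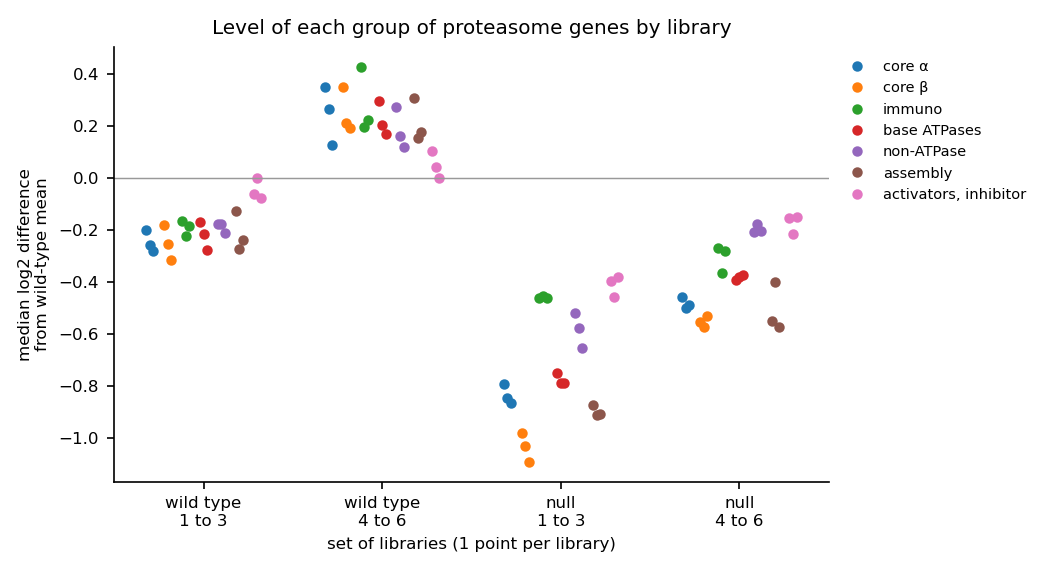
Median over the members of each class of the log2 difference from the gene's wild-type mean, for each of the 12 libraries (points), by class and set. In the beta class the null libraries lie at -0.53 or lower and the wild-type libraries at -0.32 or higher.

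Transcript length moved with the genotype difference over all genes. Genes were split into quintiles by transcript length. In the shortest (up to 1591 bases) the median difference was -0.37 with 49.2% called lower over the 12 libraries, and in the longest it was 0.49 with 11.01% called lower. Proteasome transcripts are short, with a median of 1851 bases against 3090. Of the members, 23 lay in the shortest quintile, with a median difference of -0.63 and 18 called lower. The 11 members of the next quintile had a median of -0.55 against -0.16 for all its genes, and 8 were called lower (41.7% of its genes). The 11 of the middle quintile had a median of -0.31 against 0.0065, and 8 were called lower (33.6% of its genes). With the trend over length removed from every library, the median member differed by -0.35 and all genes by 0.015. In that fit over the 12 libraries, calls were 32 members lower and 4 higher, against 32.3% of all genes called lower and 29.4% called higher.

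**Figure D5:**
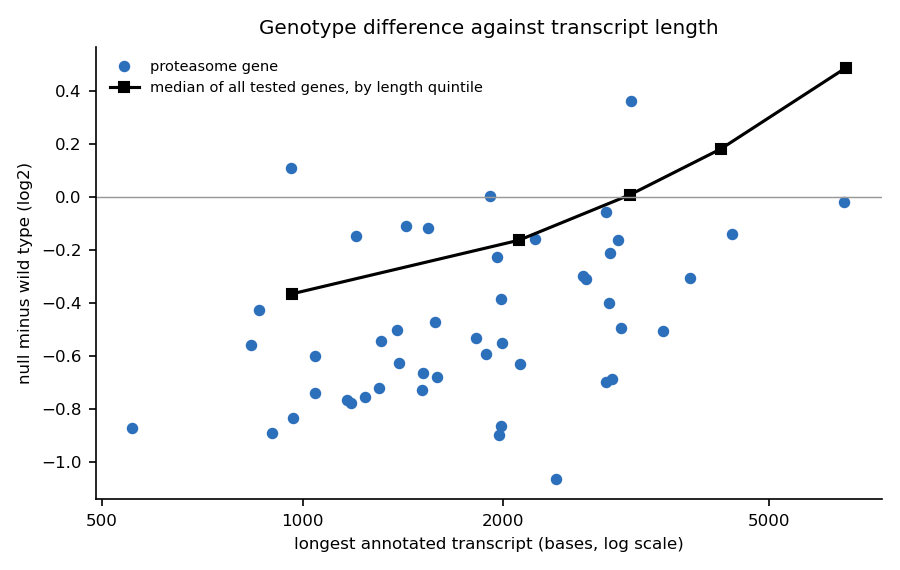
Null minus wild-type difference on the log2 scale against the length of the longest annotated transcript (bases, log axis) for each tested proteasome gene other than Psmc3ip (blue points), with the median of all tested genes in each length quintile (black squares). Most points lie below the line of all genes, which runs from -0.37 in the shortest quintile to 0.49 in the longest.

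The scale between libraries set how many members were called. Scaled to library totals, the median of all tested genes moved from 0.05 to 0.37 and that of the members from -0.52 to -0.21. Calls over the 12 libraries were then 16 lower and 6 higher, in place of 35 and 1, and of all genes 16.1% were lower and 53.2% higher. This scaling adds the same amount to the difference of every gene, so the distance of the median member from the median of all genes, -0.57, cannot move with it. After quantile normalization, which can move it, the distance was -0.35.

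Among other genes of the ubiquitin pathway, 23 of 44 were lower by the test over 12 libraries and 10 were higher, with a median of -0.18, where 31.8% of all tested genes were lower and 34.1% higher. Scaled to library totals, the counts were 13 lower and 15 higher, where 16.1% of all genes were lower and 53.2% higher. That scaling adds the same amount to the difference of every gene. The lists hold 6 to 11 tested genes each. Their counts below are over the 12 libraries without that scaling, to be read against 31.8% lower and 34.1% higher. Of 11 proteasome-associated factors, 5 were called lower and 3 higher. Pomp, which matures the core, ran from 11.24 to 11.95 (median 11.56) in wild type and from 10.56 to 11.13 (median 10.84) in the null (-0.72, SE 0.27; adjusted p 0.00108 and 0.142). Txnl1, a thioredoxin-like partner of the regulatory particle, differed by -0.91 (SE 0.20; adjusted p 5.67e-07 and 0.0592), Sem1, its smallest subunit, by -0.83, and the deubiquitinase Uchl5 by -0.75. All 4 were without overlap. Of 6 shuttle receptors 2 were called lower, close to the share of all genes, and 0 higher, where 34.1% of all genes were. Ubqln4 was at -0.57 (adjusted p 4.23e-06 and 0.11).

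Of 6 genes that control proteasome genes, 4 were called lower and 1 was called higher. Nfe2l1 was among those called lower, by a small difference without overlap (-0.20, SE 0.24, adjusted p 0.0113 and 0.581). Nfe2l3, a relative of Nfe2l1, ran from 8.08 to 8.44 (median 8.27) in wild type and from 7.03 to 7.46 (median 7.26) in the null (-1.001, SE 0.25; adjusted p 2.33e-06 and 0.0759). Nfe2l2, which drives antioxidant genes, ran from 9.61 to 9.93 (median 9.80) and from 10.17 to 10.58 (median 10.38) and was higher in every null library (0.59, SE 0.21; adjusted p 0.000166 and 0.132). Ngly1, which strips sugars from Nfe2l1, differed by -0.31. Vcp, the ATPase that pulls proteins from membranes and complexes, differed by -0.89 (SE 0.26; adjusted p 0.000176 and 0.0969), and of Vcp and 5 cofactors 4 were called lower and 0 higher.
Of 6 genes for ubiquitin supply and activation, 5 were called lower and 1 higher. The polyubiquitin gene Ubb (-0.78) and the main activating enzyme Uba1 (-0.40; 12.73 to 12.79 in wild type and 12.31 to 12.39 in the null) did not overlap. The alternative activating enzyme Uba6 was the one called higher (1.25, SE 0.51; adjusted p 0.00401 and 0.16).

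Of 11 genes for peptide loading and interferon control, which act after or above the immunoproteasome, 4 were called lower and 5 were called higher, near the shares of all genes (31.8% and 34.1%). Ifngr1, the ligand-binding chain of the interferon gamma receptor, fell by 1.26 (SE 0.19; adjusted p 1.09e-08 over 12 libraries and 0.0251 over set means), from a median of 11.21 to 9.97. It was the 1 gene of the 44 that passed both fits. Its partner chain Ifngr2 differed by -0.69 (adjusted p 3.11e-05 and 0.101). B2m, the light chain of MHC class I, ran from 15.28 to 15.73 in wild type and from 17.24 to 18.08 in the null (2.16, SE 0.75; adjusted p 3.28e-06 and 0.124). Nlrc5, an activator of MHC class I genes, differed by 1.52 (SE 0.37; adjusted p 5.4e-05 and 0.0736). B2m and Nlrc5 were higher in each null library than in any wild-type library, where Psmb9 was lower and Psmb8 overlapped.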

How the data were processed

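The deposited table gives 1 log2 value per gene and library, normalized between libraries by the authors before deposit. Per the submitters' processing notes, CASAVA 1.8.2, TopHat, Cufflinks and DESeq were used, with the builds mm9 and GRCm38.p2. The sources used here do not say which step used which, nor the read layout, strand setting or treatment of multiply mapping reads. Symbols, positions and transcript lengths (longest transcript) came from GENCODE M21 on GRCm38 (37607 of 39179 gene IDs matched, 96.0%). The level of the targeted gene and a few other items are not reported here.

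High values were whole multiples of a factor per library (100% within 0.1 of a whole number, 855 to 1071 values per library), which gave the estimated depth. For most genes no counts could be recovered, so limma 3.58.1 (R 4.3.3, trend, two-sided) was used on the deposited log2 values without a pseudocount. Tested were the 16197 genes that reached 4 in at least 6 libraries, with Benjamini-Hochberg adjustment over all of them and calls at 0.05. If the scale is variance-stabilized, as the values near the floor look, differences of low genes are understated, which was not tested. Scripts were tested on simulated data with independent noise and no difference between sets. That test therefore does not cover false calls that differences between sets may give. Sets were found by clustering all tested genes within each genotype into 2 sets. Verbs such as fell are used where both fits passed. Per-gene SEs are those over set means.

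Words of 50 bases shared between annotated transcripts marked members with near-identical copies. Any member may be named, with up to 4 genes of each pathway list by lowest p over the 12 libraries. Nfe2l1 was named outside that rule. Members, lists and tests were chosen with earlier results of these data known. Alternatives were other scalings, filters, variance models, units of replication, removal of the length trend and leaving out libraries or sets. Summing members with their closest copies was chosen after seeing the data. Python 3.11.15 was used for summaries and figures.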

Additional observations from a re-analysis of the deposited data

Results flagged for a closer look

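Psmd1 in null library 5 was at 10.64 on the deposited log2 scale, where the other 5 null libraries were at 10.52 to 10.55. Its gap to the nearest library was 0.712 of the whole range of the group, above Dixon's critical value for 6 values. It was 1 of 100 groups examined (each member in each genotype), of which chance flags about 1 in 20. Psmd1 was above every wild-type library with or without this value.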

How the results depend on the processing

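Over the 12 libraries 15 members were called lower in 28 of 29 settings (Psma2, Psma4, Psma5, Psma7, Psmb1, Psmb3, Psmb4, Psmb5, Psmb6, Psmb7, Psmc1, Psmd8, Psmg1, Psmg2 and Psmg3), all but the set means. Leaving out 1 library gave 33 to 38 members called lower and 1 to 2 called higher (29.9% to 31.7% and 31.2% to 33.9% of all genes). No paired analysis was possible because the labels carry no replicate numbers. Over set means 0 members were called in either direction, also under each other scaling and filter tried, and 1 gene of the pathway lists was called lower and 0 higher. With the set as a random block 0 members were called higher, and of the pathway lists 15 genes lower and 5 higher (17.1% and 14.1% of all genes). Scaling to library totals gave 16 members lower and 6 higher, a median of -0.21 and 13 pathway genes lower and 15 higher (16.1% and 53.2% of all genes). Called higher were 2 members under library totals without the 50 most abundant genes, upper-quartile centring, quantile normalization and without the second wild-type set, and 4 with the length trend removed, where 5 pathway genes were called higher. The shares of all genes called higher in these fits were, in the same order, 42%, 38.5%, 29.1%, 27.2% and 29.4%. The median was -0.72 without the first wild-type set, -0.31 without the second and -0.74 without the second null set.

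Of the pairs, Psmb8 minus Psmb5 was 0.69 without the first wild-type set and 1.095 without the second. Psmb9 minus Psmb6 was 0.091 with the length trend removed and 0.20 after quantile normalization. Psmb10 minus Psmb7 was 0.43 with the length trend removed, -0.0451 without the first wild-type set and 0.35 without the second. Members whose sign turned were these. Library totals: Psma1 0.16, Psma3 0.26, Psmc6 0.16, Psmd3 0.10, Psmd5 0.17, Psmd9 0.015, Psmd10 0.20, Psmd11 0.15, Psmd12 0.085, Psmd14 0.20, Psme3 0.0053, Psme4 0.29 and Psmf1 0.0065. Without the 50 most abundant genes: Psma3 0.089, Psmd5 0.0069, Psmd10 0.038, Psmd14 0.028 and Psme4 0.13. Upper quartile: Psma3 0.018 and Psme4 0.056. Quantile: Psmb8 -0.034, Psmd3 0.050, Psme2 -0.20 and Psme4 0.20. Length trend removed: Psma1 0.19, Psmd10 0.18 and Psmd14 0.15. Library weights: Psme4 0.0044. First null set left out: Psma3 0.066, Psmd3 0.11 and Psmd10 0.018. Second null set: Psmb8 -0.21, Psme2 -0.056 and Psme4 0.066. First wild-type set: Psmb8 -0.27 and Psmd5 0.13. Second wild-type set: Psma3 0.0028, Psmd10 0.22, Psmd14 0.12, Psme1 0.020 and Psme4 0.050. Single libraries left out: Psmb8 -0.084 to 0.091 and Psme4 -0.048 to 0.0037. Summed with Psme2b: Psme2 -0.52. Library totals, with or without the 50 most abundant genes, and the upper quartile add 1 amount to the difference of every gene, so those turns follow from the scaling. Leaving out a set or library means fewer samples. The cause of the other turns was not tested.

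Psma8 and Psmb11 did not reach a value of 4 in at least 6 libraries and were not tested. Fits over set means have 2 values per genotype.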
